A study of Homo sapiens with 6 samples.

Results

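A431 cells given epidermal growth factor (EGF) together with gefitinib were compared with untreated A431 cells. The aim was to describe which transcripts differed from control in the presence of this inhibitor of the EGF receptor kinase. The arrays do not measure kinase activity. A431, a line from a human epidermoid carcinoma, is known for carrying unusually many EGF receptors (EGFR), and all 6 samples of the series came from this 1 line. The comparison used 4 of the 6 arrays, 2 of untreated cells and 2 of cells given 100 ng/ml EGF with 10 µM gefitinib, and the other 2 arrays, of cells given 100 ng/ml EGF alone, served to place each value. All groups were grown with 10% serum, and a single treatment description, given for every sample, names a starvation of 24 h and a harvest 30 min after treatment. Whether gefitinib preceded EGF or came with it is not stated in the sources used here. No group received gefitinib alone, so an effect of gefitinib itself and a remainder of the EGF effect cannot be told apart in any result given here. Arrays of 1 group are labelled as biological replicates, with no mention of separate cultures, and the p-values therefore rest on the spread among these samples alone, part or all of which may be technical. The transcripts were chosen by their identifiers and not by their values: all 17705 named transcript probe sets with identifiers starting with TC, of 21448 transcript probe sets on the array. A level is the log2 value of a probe set on 1 array, and a difference is the mean level with EGF plus gefitinib minus the mean level in control, given with its standard error (SE).

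EGFR is a receptor tyrosine kinase that, once bound by EGF, signals through the ERK and AKT pathways. ERK signalling switches on immediate early transcription factors and then the phosphatases and adaptors that dampen it, while AKT keeps FOXO transcription factors out of the nucleus. The integrated stress response is a separate pathway, in which kinases that sense amino acid lack or protein misfolding slow translation and raise ATF4, a transcription factor for amino acid synthesis and transport genes. Gefitinib binds the kinase domain of EGFR and competes with ATP there.

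Of the 21448 transcript probe sets, 834 passed an adjusted p of 0.05 (3.89%), 470 of them higher with EGF plus gefitinib than in control (2.19%) and 364 lower (1.7%). Of the probe sets with a gene symbol 409 were higher and 340 lower, which after keeping 1 probe set per gene left 408 genes that rose and 339 that fell. A gene was taken to lie within the negative-control range on an array when its level was at or below the 95th percentile of that array's negative-control probe sets, 7.14 to 7.65. Among the genes that rose, 100 lay within this range on both control arrays, and 35 of these lay above it on both EGF plus gefitinib arrays. Of those 35, 28 also lay within the range on both arrays of EGF alone. Among the genes that fell, 104 lay within the range on both EGF plus gefitinib arrays, of which 42 were above it on both control arrays. For 99 called genes all 4 arrays lay within the range, and no fold is given for them. A fold, measured or as the lower bound that this range allows, was at least 2 for 244 of the genes that rose and 182 of those that fell, and at least 4 for 26 and 9. With probe sets cut into 4 equal bins by mean level over all 6 arrays, the share called was 0.41% in the lowest bin and 7.52% in the highest. In the highest bin 221 of 5362 probe sets were called higher and 182 lower. Lists of bright genes therefore stand beside a higher share than that over all probe sets.

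The calls rested on the replicate spread of 2 arrays a group. With control replicate 1 or EGF plus gefitinib replicate 2 left out, limma called 0 probe sets, against 3280 and 3810 with an unadjusted p under 0.05, where the fit of all arrays had 4457. Without control replicate 2 it called 8, and without EGF plus gefitinib replicate 1 it called 120. Leaving out either array of EGF alone gave the same fit as using only the 4 arrays of both groups, which called 247. These 2 fits are therefore 1 check. The sign of the difference was kept by all 747 called genes in each of the 6 fits with an array left out. This was fixed in advance, as the arrays of both groups did not overlap for any of these genes. Arrays of 1 group correlated at 0.993 (control) and 0.991 (EGF plus gefitinib) over all transcript probe sets, and a control array with an EGF plus gefitinib array at 0.984 to 0.987. In such bulk samples fewer cells of a type and less RNA per cell cannot be told apart.

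**Figure D1:**
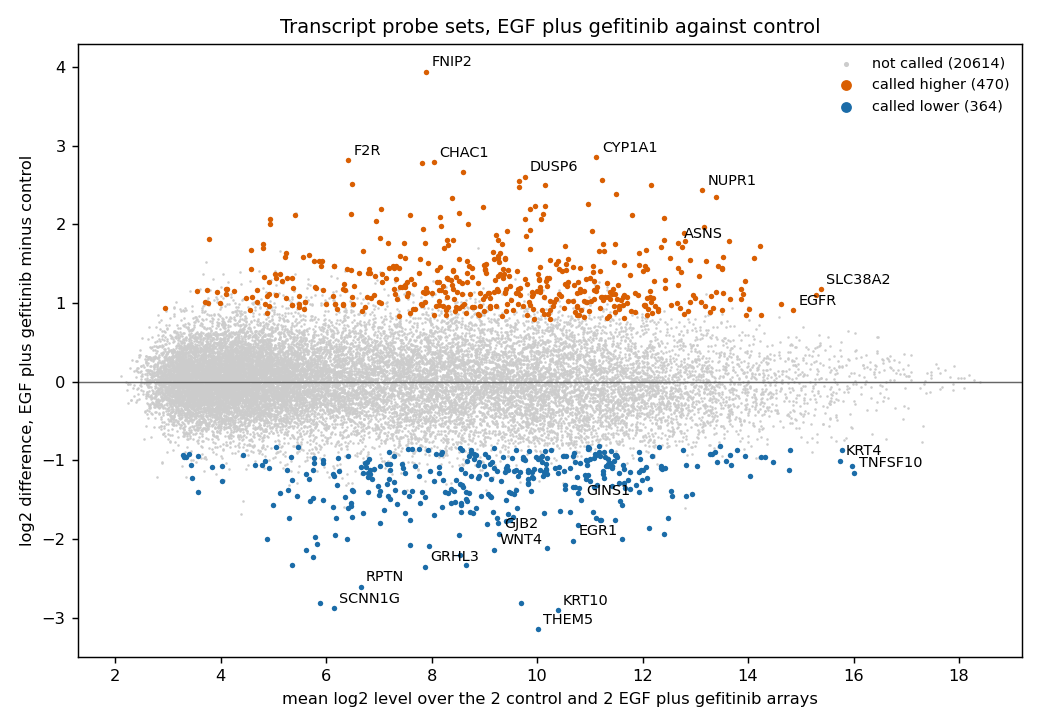
Difference between EGF plus gefitinib and control (vertical axis, log2) against the mean level over the 4 arrays of both groups (horizontal axis, log2), 1 point per transcript probe set. Orange points are the 470 called higher and blue points the 364 called lower, grey points were not called; FNIP2 stands highest at a fitted 3.94, against control levels within the negative-control range, and THEM5 lowest at -3.15.

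The keratinocyte character of the cells was checked against marker lists, which cannot single out the A431 line. All 10 measured keratinocyte markers lay above the negative-control range on all 6 arrays. Of 10 fibroblast, 13 leukocyte, 10 endothelial and 6 melanocyte markers, 8, 11, 8 and 5 lay above it on no array, and none of these 4 lists had a called member (limma), with 2 fibroblast markers lower, 1 leukocyte marker higher and 3 lower, 1 endothelial marker higher and 0 melanocyte markers at an unadjusted p under 0.05. The mean level over the keratinocyte markers was 13.57 to 13.58 on the control arrays and 13.78 to 13.87 with EGF plus gefitinib. Of these 10 markers 2 were called higher, EGFR and DSG3, and 1 lower, SFN, with a difference of -1.07. EGFR, the target of gefitinib, was at 14.42 and 14.38 in control, 14.44 and 14.44 with EGF alone, and 15.26 and 15.36 with EGF plus gefitinib. Both inhibitor arrays were thus above all 4 others, a rise of 0.91 ± 0.17 SE (1.87-fold, adjusted p 0.0372) over control that was called in 0 of the 6 fits with an array left out. EGF alone differed from control by 0.04 ± 0.17 SE for this gene (adjusted p 0.916).

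FNIP2, a partner of folliculin in nutrient sensing at the lysosome, had the largest fitted difference among the genes that rose, against control levels within the negative-control range. Its levels were 5.95 and 5.89 in control, 6.61 and 5.87 with EGF alone, and 9.72 and 10.01 with EGF plus gefitinib. Only the inhibitor arrays lay above the negative-control range, which gave at least a 5.95-fold rise (adjusted p 0.00618). CYP1A1, the cytochrome that oxidises aromatic hydrocarbons and a standard target of the aryl hydrocarbon receptor AHR, had the largest measured fold among named genes that rose, with 10.05 and 9.34 in control and 12.45 and 12.66 with EGF plus gefitinib. This was a rise of 2.85 ± 0.26 SE (7.22-fold, adjusted p 0.00731), and the arrays of EGF alone, at 6.48 and 6.57, lay on the other side of control. It was the 1 of 6 measured AHR targets that was called, where EGF alone had 0 called higher and 4 lower. F2R, the thrombin receptor, lay within the negative-control range on the 4 arrays of control and EGF alone (4.87 to 5.28) and above it with the inhibitor (8.08 and 7.58), a rise of at least 1.45-fold. HSPB8, a small heat shock protein, was at 8.98 and 8.83 in control, 8.56 and 8.99 with EGF alone and 11.47 and 11.35 with EGF plus gefitinib (2.51 ± 0.21 SE, 5.68-fold, adjusted p 0.0069). AHNAK2 rose by 2.50 ± 0.19 SE (5.65-fold), from 10.95 and 10.85 to 13.33 and 13.47. In all 5 genes the inhibitor arrays stood above both other groups, and each was also called higher against EGF alone. This was fixed by the rule that named them, which asked for a call against both groups.

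Among the genes called lower than both other groups was GRHL3, a transcription factor of the epidermal barrier. It was at 8.89 and 9.21 in control, 8.08 and 8.24 with EGF alone, and 7.13 and 6.27 with EGF plus gefitinib, a fall of at least 2.99-fold (adjusted p 0.0149). MLLT11 fell 5.05-fold, from 9.78 and 9.85 to 7.68 and 7.28, with 1 inhibitor array within the negative-control range, and TLCD1 fell 4.32-fold, from 11.22 and 11.27 to 9.12 and 9.15. The arrays of EGF alone stayed beside control for both genes, at 9.70 and 9.54 and at 11.43 and 11.22. MALL, a membrane protein of the MAL family, and GJB2, a gap junction connexin, lay above control with EGF alone and below it with the inhibitor. GJB2 levels were 10.22 and 10.27 in control, 13.83 and 14.02 with EGF alone, and 8.34 and 8.28 with EGF plus gefitinib (fall of 3.82-fold against control, adjusted p 0.00731). MALL fell 4.01-fold against control, from 12.64 and 12.56 to 10.79 and 10.41, where the arrays of EGF alone were at 13.74 and 13.92. PSMB10, an immunoproteasome subunit, fell 3.51-fold, and BLVRA, a biliverdin reductase, at least 1.37-fold.

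**Figure D2:**
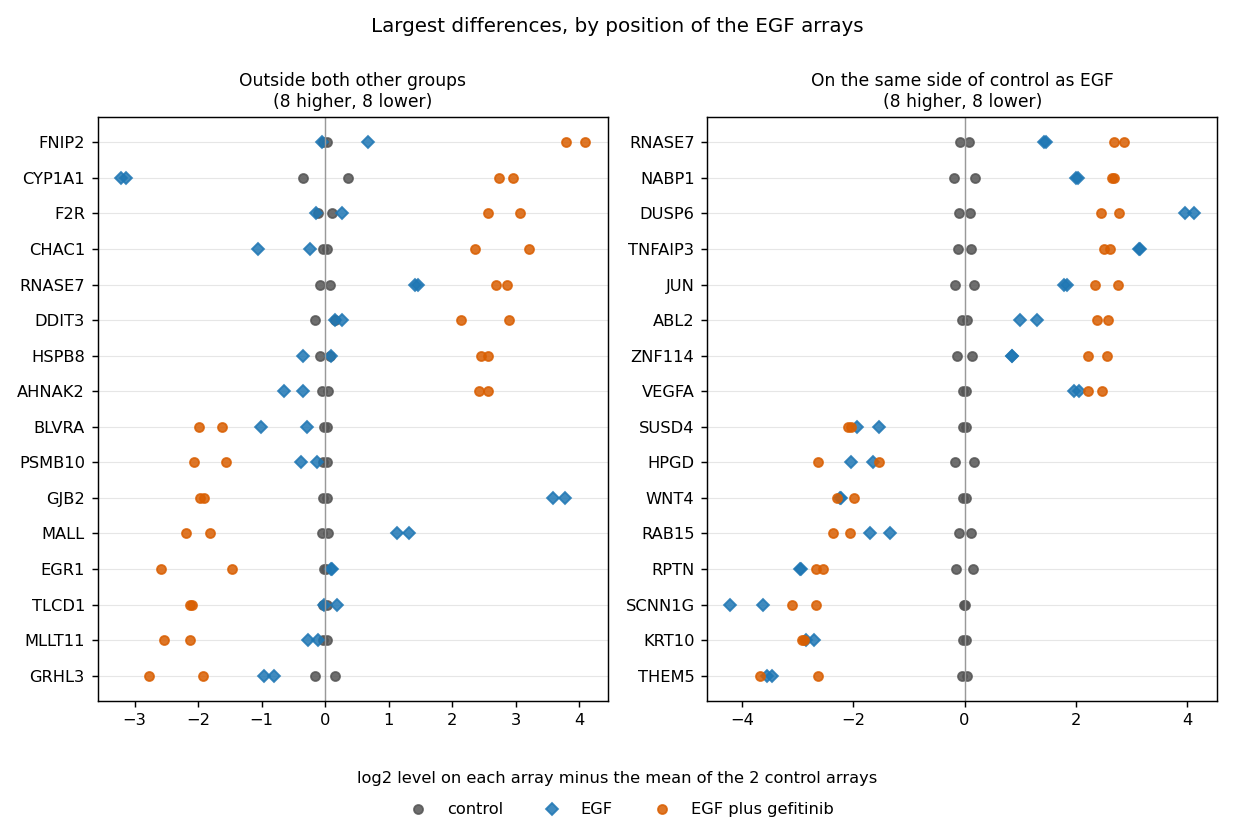
Level on each array minus the mean of both control arrays (horizontal axis, log2) for the genes with the largest differences, control in grey, EGF alone in blue and EGF plus gefitinib in orange. On the left the inhibitor arrays were called beyond both other groups, as for FNIP2 and GRHL3; on the right EGF alone was called on the same side of control, as for DUSP6 and KRT10.

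EGR1, an immediate early transcription factor, was also below both other groups. It was at 11.70 and 11.67 in control and 11.80 and 11.77 with EGF alone, against 10.23 and 9.10 with EGF plus gefitinib. The fall of 2.02 ± 0.34 SE (4.07-fold, adjusted p 0.0291) ranged from -2.59 to -1.46 when single arrays were left out and was called in 1 of those 6 fits. FOS, the immediate early partner of JUN, lay within the negative-control range on all 6 arrays, and its difference of 0.46 had a 95% interval of -0.09 to 1.02 (adjusted p 0.325).

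Some other genes of the EGF response stood above control in both treated groups, and others did not. Feedback inhibitors of EGFR and MAPK signalling had 9 of 27 measured members called higher and 0 lower against control. All probe sets had 2.19% called higher and 1.7% lower. The median difference was 0.69, where the median over all transcript probe sets was 0.01. For EGF alone against the same control arrays the counts were 14 and 2 and the median 1.09, where 6.61% of all probe sets were called higher and 5.3% lower. DUSP6, a phosphatase that inactivates ERK, was at 8.36 and 8.56 in control, 12.58 and 12.42 with EGF alone and 11.23 and 10.90 with EGF plus gefitinib. Its rise of 2.61 ± 0.20 SE over control (6.1-fold, adjusted p 0.00618) stood beside a rise of 4.04 ± 0.20 SE with EGF alone, and the inhibitor arrays were below those of EGF alone (adjusted p 0.00352). DUSP4, another MAP kinase phosphatase, rose by 2.01 ± 0.25 SE with the inhibitor and by 2.92 ± 0.25 SE without it. ERRFI1, which binds and inhibits the EGFR kinase, rose by 1.44 ± 0.19 SE and 1.58 ± 0.19 SE. SPRED2, which restrains RAF activation, rose by 1.11 ± 0.18 SE with the inhibitor, and its difference with EGF alone was 0.01 ± 0.18 SE. SPRY4, an inhibitor of RAS signalling, was within the negative-control range on all 6 arrays, with a difference of 0.27 (adjusted p 0.578). The list had 0 calls without control replicate 1, control replicate 2 or EGF plus gefitinib replicate 2, and 2 without EGF plus gefitinib replicate 1, with 11 to 15 members higher at an unadjusted p under 0.05 over the 6 fits.

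Among immediate early transcription factors 7 of 28 were called higher and EGR1 alone lower, against 2.19% and 1.7% of all probe sets. The median difference was 0.36. JUN, a subunit of AP-1, was at 8.55 and 8.22 in control, 10.16 and 10.23 with EGF alone and 11.14 and 10.73 with EGF plus gefitinib. It rose by 2.55 ± 0.22 SE over control (5.85-fold, adjusted p 0.0069), and the inhibitor arrays lay above those of EGF alone with an adjusted p of 0.0553. KLF6, a zinc finger transcription factor, was at 11.36 and 11.38 in control, 13.39 and 13.68 with EGF alone and 13.60 and 13.30 with the inhibitor, so that the treated groups overlapped above control (2.08 ± 0.20 SE, 4.23-fold). FOSL1, a FOS family member, was at 9.95 and 9.79 in control, 13.88 and 13.87 with EGF alone, and 10.21 and 9.55 with EGF plus gefitinib. Its difference from control was 0.02 ± 0.24 SE (adjusted p 0.982), and the arrays of these groups overlapped. MYC, the growth-promoting transcription factor, was at 12.14 and 12.05 in control, 13.64 and 13.60 with EGF alone and 12.92 and 12.73 with EGF plus gefitinib, a difference of 0.73 that did not pass the threshold (adjusted p 0.0685). This list too had 0 calls without control replicate 1, control replicate 2 or EGF plus gefitinib replicate 2, and 4 members called higher without either array of EGF alone and 2 without EGF plus gefitinib replicate 1.

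Delayed early EGF response genes had 6 of 22 members called higher and 1 lower, with a median of 0.23. For EGF alone these values were 12, 2 and 1.38. The shares over all probe sets with EGF plus gefitinib were 2.19% higher and 1.7% lower. VEGFA, the endothelial growth factor, was at 12.19 and 12.24 in control, 14.17 and 14.27 with EGF alone, and 14.68 and 14.44 with EGF plus gefitinib. Both treated groups were above control, by 2.01 ± 0.18 SE and 2.35 ± 0.18 SE (5.08-fold with the inhibitor, adjusted p 0.00618). PHLDA1 rose by 2.12 ± 0.25 SE and PLAU, the urokinase protease, by 1.71 ± 0.18 SE. MMP10, a matrix metalloprotease, was called lower within the negative-control range. TNFAIP3, an inhibitor of NF-kB signalling, was at 9.83 and 10.06 in control, 13.10 and 13.08 with EGF alone and 12.45 and 12.57 with the inhibitor. Its rise of 2.56 ± 0.18 SE (5.91-fold, adjusted p 0.00618) ranged from 2.45 to 2.67 with single arrays left out. Outside the lists NABP1, ABL2 and ZNF114 were also called above control in both treated groups. They rose 6.34-fold, 5.58-fold and 5.21-fold with the inhibitor, and NABP1 exceeded the negative-control range on 1 control array. Against EGF alone ABL2 and ZNF114 were called higher (limma, adjusted p 0.00424 and 0.00288) and NABP1 was not (adjusted p 0.0626). Of the 12 receptors and ligands of the ERBB family 2 were called higher and 1 lower. Beside EGFR, HBEGF, an EGFR ligand, rose by at least 1.51-fold, from 6.70 and 6.71 to 7.96 and 7.80, where EGF alone gave 9.11 and 9.09. NRG4, a ligand of ERBB4, fell 2.34-fold. EREG, also an EGFR ligand, was at 5.79 and 6.06 in control, 9.19 and 9.19 with EGF alone and 6.64 and 6.76 with EGF plus gefitinib (adjusted p 0.0665 against control). Among other receptor tyrosine kinases 3 of 27 rose and 0 fell: MET, the receptor of hepatocyte growth factor, by 1.49 ± 0.19 SE, EPHA2, an ephrin receptor, by 1.24 ± 0.18 SE, and KIT within the negative-control range. The delayed early list had 0 calls without control replicate 1, control replicate 2 or EGF plus gefitinib replicate 2. The ERBB list had 0 in each of the 6 fits, and the list of other receptors 0 without control replicate 1 or EGF plus gefitinib replicate 2 and 1 without control replicate 2 or EGF plus gefitinib replicate 1.

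The integrated stress response list had the highest share of called members of all function lists: 12 of its 20 measured regulators rose, 0 fell, and the median difference was 1.44. Of all probe sets 2.19% were called higher and 1.7% lower. With EGF alone 4 were called higher and 4 lower, with a median of 0.21. ATF4 itself was at 13.33 and 13.36 in control, 12.91 and 12.86 with EGF alone and 14.44 and 14.36 with EGF plus gefitinib, so that only the inhibitor arrays were above control (1.05 ± 0.17 SE, 2.07-fold, adjusted p 0.0254). CHAC1, an enzyme that degrades glutathione, was at 6.61 and 6.68 in control, 6.41 and 5.58 with EGF alone and 9.86 and 9.01 with the inhibitor, a rise of at least 4.42-fold (adjusted p 0.0153). DDIT3, the transcription factor CHOP, was at 5.38 and 5.06, 5.49 and 5.38, and 8.12 and 7.36 in the same order, a rise of at least 1.37-fold (adjusted p 0.0103). For both genes the inhibitor arrays alone were above the negative-control range. NUPR1, a stress-induced chromatin protein, was at 11.93 and 11.88 in control, 9.35 and 9.14 with EGF alone and 14.80 and 13.89 with EGF plus gefitinib, and rose by 2.44 ± 0.30 SE (5.41-fold, adjusted p 0.0143). PPP1R15A, which directs the phosphatase that ends the stress response, rose 4.37-fold from 8.94 and 9.16 to 11.30 and 11.06, with EGF alone at 9.13 and 8.93. TRIB3, a pseudokinase that inhibits AKT, and STC2, a secreted glycoprotein, rose 4.57-fold and 4.41-fold against control, and in both the arrays of EGF alone lay between the other groups. DDIT4, CEBPG and ERN1 rose by 1.13 to 1.78, and GDF15 and ATF3, within the negative-control range on both control arrays, rose at least 2.56-fold and 1.69-fold. SESN2, an inhibitor of mTORC1 signalling, had a difference of 0.75 (adjusted p 0.133). Without EGF plus gefitinib replicate 1 the list had 6 calls, and without control replicate 1, control replicate 2 or EGF plus gefitinib replicate 2 it had 0, with 12 to 14 members higher at an unadjusted p under 0.05 in each fit.

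Amino acid synthesis enzymes had 5 of 17 members called higher and 0 lower, where 2.19% and 1.7% of all probe sets were. Their median difference was 0.03. Those that rose were ASNS, asparagine synthetase (1.76 ± 0.19 SE), ALDH1L2 and MTHFD2 of mitochondrial folate metabolism (1.34 ± 0.19 SE and 1.28 ± 0.19 SE), CTH, which makes cysteine (1.33 ± 0.21 SE), and PSAT1 of serine synthesis (1.18 ± 0.20 SE). ASNS levels were 11.78 and 11.81 in control, 11.12 and 10.87 with EGF alone and 13.67 and 13.45 with EGF plus gefitinib, a 3.39-fold rise (adjusted p 0.00963). ASNS, ALDH1L2, CTH and PSAT1 were called lower than control with EGF alone, and for MTHFD2 the difference there was 0.67 (adjusted p 0.0631). Amino acid transporters had 5 of 21 members called higher and 0 lower, with a median of 0.21. SLC7A11, the cystine transporter, was at 8.71 and 8.76 in control, 7.38 and 6.13 with EGF alone and 10.41 and 11.20 with the inhibitor, a rise of 2.07 ± 0.42 SE (4.2-fold, adjusted p 0.0462). SLC38A2, SLC6A9, SLC38A1 and SLC1A4, carriers of small neutral amino acids, rose by 0.87 to 1.18. Of 16 aminoacyl-tRNA synthetases, AARS1 rose by 0.89 ± 0.18 SE and FARSA fell by 0.83 ± 0.17 SE. A count of 1 in each direction says little about a list of this size. Leaving out control replicate 1, control replicate 2, EGF plus gefitinib replicate 1 or EGF plus gefitinib replicate 2 left 0 calls in the synthesis and transporter lists, and leaving out either array of EGF alone left 3 and 1, with 6 to 7 and 7 to 9 members higher at an unadjusted p under 0.05.

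**Figure D3:**
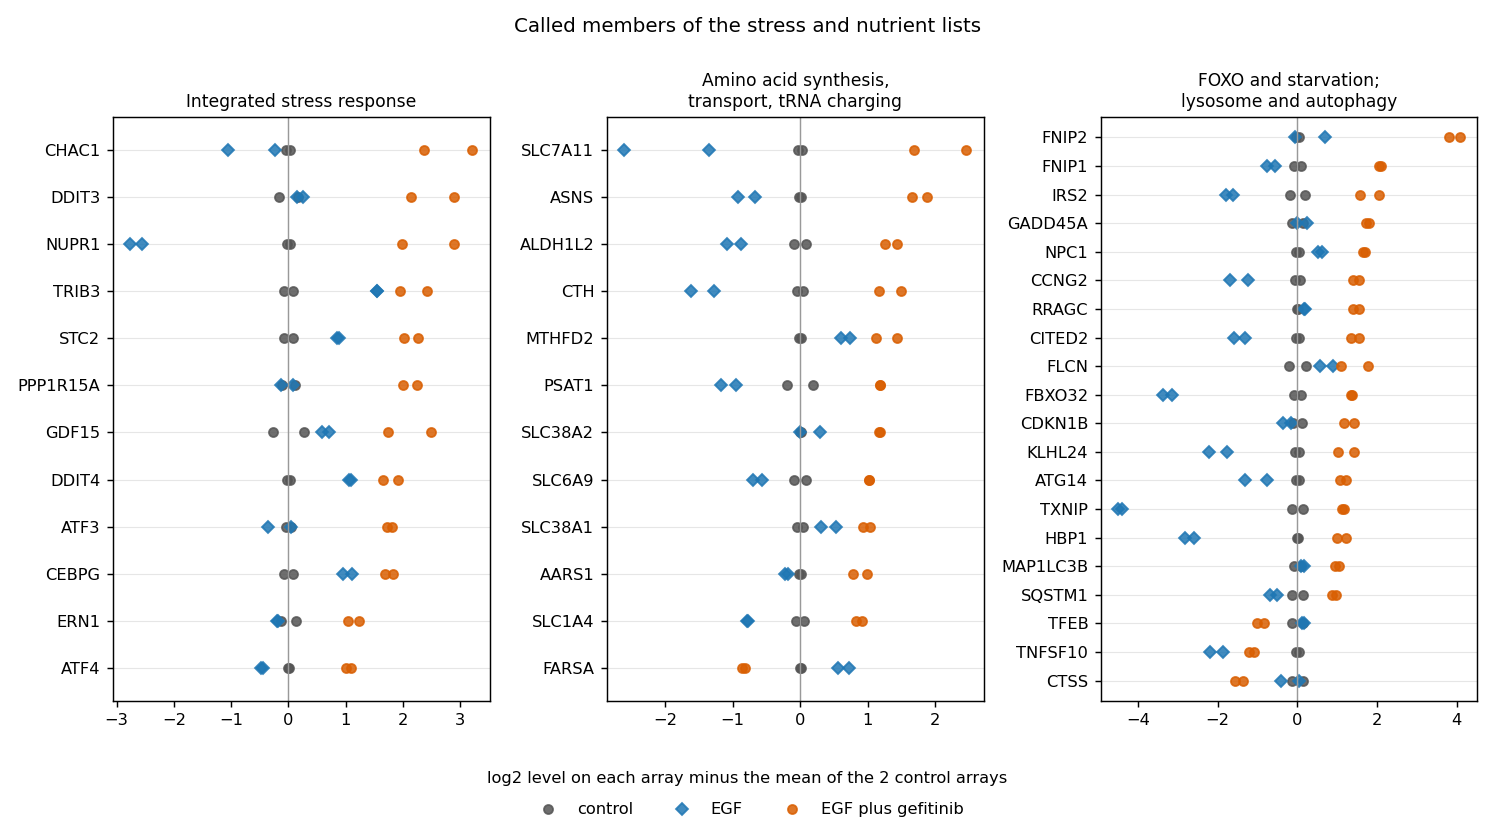
Level on each array minus the mean of both control arrays (horizontal axis, log2) for the called members of the stress and nutrient lists, control in grey, EGF alone in blue and EGF plus gefitinib in orange. For the 12 called regulators of the integrated stress response the blue points lie on either side of control, as for NUPR1 and TRIB3. Orange and grey points did not overlap for any of the 747 called genes, nor for 50.4% of all transcript probe sets. That separation is therefore no trait of a list.

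Promoter sequences of the members that rose were searched for the letters of motifs known for the factors of these pathways, in the 250 bases before each gene start, on both strands. They come from RefSeq (GRCh38.p14), where 11 of the 12 stress regulators, 4 of the 5 synthesis enzymes, 7 of 9 genes of the FOXO list that rose and CYP1A1 had an entry. The composite element of ATF4 and C/EBP factors, TGATGNAA, was in 3 of the 17 promoters of the stress regulators (ATF3, CEBPG and CHAC1), in 1 of the 5 of the enzymes (ASNS) and in 3.14% of all 35116 promoters of the table. The FOXO motif GTAAACA was in 2 of the 11 promoters of the FOXO list genes (HBP1 and TXNIP), in 1 of GDF15 from the stress list, and in 2.98% of all promoters. The AHR core GCGTG was in the CYP1A1 promoter, and is a short motif held by 32.2% of all promoters, among them 11 of the 17 promoters of the stress regulators, 3 of 5 of the enzymes and 6 of 11 of the FOXO list genes, some genes having several. The AP-1 motif TGANTCA, in 6.57% of all promoters, was in those of DDIT3 and KLHL24, and the NRF2 motif TGACNNNGC, in 10.9%, in those of PPP1R15A, CDKN1B and IRS2. The stretches around 7 matches are shown because each motif there is that of its own list's factor, in a gene that rose under the inhibitor, with the match in capitals and 16 bases on each side, read 5′ to 3′ on the gene's strand; a match is a description of letters and not a measured binding site. The matches start 68 bases before the gene start in ASNS (chr7:97872453-97872492, minus strand), 42 in CEBPG (chr19:33374055-33374094, plus strand), 209 in CHAC1 (chr15:40953246-40953285, plus strand, motif on the opposite strand), 191 in ATF3 (chr1:212565200-212565239, plus strand), 124 in TXNIP (chr1:145996681-145996719, minus strand), 173 in HBP1 (chr7:107168814-107168852, plus strand) and 57 in CYP1A1 (chr15:74725565-74725601, minus strand).
ASNS: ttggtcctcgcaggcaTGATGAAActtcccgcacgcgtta
CEBPG: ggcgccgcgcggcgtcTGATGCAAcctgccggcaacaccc
CHAC1: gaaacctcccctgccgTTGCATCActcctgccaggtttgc
ATF3: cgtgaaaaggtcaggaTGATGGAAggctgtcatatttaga
TXNIP: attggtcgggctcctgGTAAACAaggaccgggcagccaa
HBP1: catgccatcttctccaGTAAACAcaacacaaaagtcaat
CYP1A1: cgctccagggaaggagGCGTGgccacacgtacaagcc

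Genes induced by FOXO factors or starvation had 9 of 27 members called higher and 1 lower with EGF plus gefitinib, against 2.19% and 1.7% of all probe sets. The median difference was 0.43. With EGF alone, against the same control arrays, 1 was called higher and 16 lower, with a median of -1.46. TXNIP, an inhibitor of thioredoxin and glucose uptake, was at 10.39 and 10.11 in control, 5.74 and 5.84 with EGF alone and 11.35 and 11.42 with EGF plus gefitinib. The inhibitor arrays were thus above control by 1.14 ± 0.18 SE (2.21-fold, adjusted p 0.0262), and the arrays of EGF alone lay within the negative-control range. IRS2, an adaptor of the insulin receptor, was at 7.58 and 7.18, 5.59 and 5.76, and 8.94 and 9.42 in the same order (1.80 ± 0.24 SE, 3.48-fold, adjusted p 0.0166). FBXO32, a ubiquitin ligase of muscle wasting, was at 11.17 and 11, 7.94 and 7.72, and 12.45 and 12.43, a rise of 1.36 ± 0.18 SE. HBP1, a transcriptional repressor of cell cycle genes, rose by 1.10 ± 0.19 SE with the inhibitor. GADD45A, CCNG2, CITED2, CDKN1B and KLHL24 rose by 1.21 to 1.76. TNFSF10, the death ligand TRAIL, fell by 1.16 ± 0.19 SE with the inhibitor and by 2.03 ± 0.19 SE with EGF alone. Without either array of EGF alone the list had 5 members called higher, without EGF plus gefitinib replicate 1 it had 1, and without control replicate 1, control replicate 2 or EGF plus gefitinib replicate 2 it had 0, with 10 to 14 higher at an unadjusted p under 0.05.

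Lysosome and autophagy genes had 8 of 28 members called higher and 2 lower (median 0.16), against 2.19% and 1.7% of all probe sets. The counts with EGF alone were 0 and 5. Beside FNIP2 the related FNIP1 rose by 2.06 ± 0.18 SE, from 9.12 and 8.96 to 11.08 and 11.13, with EGF alone at 8.26 and 8.47. RRAGC, a GTPase that tethers mTORC1 to the lysosome and whose activity folliculin controls, rose by 1.47 ± 0.17 SE, and FLCN, folliculin itself, was called higher within the negative-control range. NPC1, the lysosomal cholesterol transporter, rose by 1.68 ± 0.17 SE (3.19-fold), from 11.19 and 11.28 to 12.89 and 12.93. ATG14, MAP1LC3B and SQSTM1, factors of autophagosome formation and cargo, rose by 0.92 to 1.14, while CTSS, a cathepsin protease, fell by at least 2.21-fold and TFEB, a transcription factor of lysosome genes, fell within the negative-control range. The list had 0 members called higher without control replicate 1 or EGF plus gefitinib replicate 2, 1 without control replicate 2, 4 without either array of EGF alone and 3 without EGF plus gefitinib replicate 1.

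Genes of epidermal differentiation and antimicrobial defence moved the other way, with 10 of 31 measured members called lower and 0 higher, and a median difference of -0.75. Of all probe sets 1.7% were called lower and 2.19% higher. For EGF alone 7 were called higher and 8 lower, with a median of -0.10. Beside GRHL3, S100A8, a calcium-binding antimicrobial protein, was at 8.97 and 8.80 in control, 7.34 and 7.60 with EGF alone and 7.50 and 6.87 with EGF plus gefitinib, a fall of at least 2.67-fold. SPRR1A, a cornified envelope protein, was at 10.21 and 9.79, 10.61 and 10.89, and 8.59 and 8.10 in the same order, so that only the inhibitor arrays lay below control (fall of 3.15-fold, adjusted p 0.0216). IVL, involucrin, fell from 7.30 and 7.48 to levels within the negative-control range, which left no fold to give. SERPINB3 and SERPINB4, protease inhibitors, and SPRR2A, a cornified envelope protein, were called lower as well. SERPINB3 exceeded the negative-control range on 0 arrays of control and 0 of EGF plus gefitinib, and SERPINB4 on 1 and 0. No fold is given for either gene, and their falls below control rest on such dim signals. KLK7 and KLK10, proteases of the kallikrein family, fell 2.0-fold and 2.03-fold. The SERPINB3 levels were 7.06 and 7.37 in control, 12.70 and 12.70 with EGF alone and 5.93 and 5.28 with EGF plus gefitinib; SERPINB3 and SERPINB4, and SPRR2A and its neighbours, are near-identical copies whose signals the probe sets may not separate. RNASE7, an antimicrobial ribonuclease of skin outside this list, rose by at least 3.78-fold, from 6.35 and 6.51 to 9.30 and 9.12. It was also called higher than control with EGF alone, at 7.89 and 7.85 (limma, adjusted p 0.00416). Without either array of EGF alone the list had 4 members called lower, without EGF plus gefitinib replicate 1 it had 3, and without control replicate 1, control replicate 2 or EGF plus gefitinib replicate 2 it had 0, with 15 to 19 lower at an unadjusted p under 0.05.

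Keratins had 5 of 16 members called lower and 0 higher, where 1.7% of all probe sets were called lower and 2.19% higher. With EGF alone 2 keratins were called lower and 4 higher, with a median of 0.21. KRT10, the keratin of differentiating suprabasal cells, was at 11.87 and 11.81 in control, 9.15 and 9.0 with EGF alone and 8.92 and 8.96 with EGF plus gefitinib. Its fall of 2.91 ± 0.17 SE (7.5-fold, adjusted p 0.00618) stood beside a fall of 2.77 ± 0.17 SE with EGF alone. With single arrays left out, the difference between inhibitor and control ranged from -2.94 to -2.88. KRT13 and KRT4, keratins of stratified mucosa, fell by 1.13 ± 0.18 SE and 1.0 ± 0.19 SE, and KRT1 and KRT23 fell, with both inhibitor arrays inside the negative-control range. Outside the keratins, 3 genes were below control in both treated groups, as KRT10 was. They were THEM5, an acyl-CoA thioesterase (8.85-fold with the inhibitor), RPTN, repetin of the cornified envelope (at least 1.4-fold), and WNT4, a signalling ligand (4.41-fold). THEM5 was at 11.64 and 11.54 in control, 8.13 and 8.03 with EGF alone and 8.96 and 7.92 with the inhibitor. Also lower in both were RAB15, a small GTPase (4.61-fold), HPGD, which degrades prostaglandins (4.24-fold), and SUSD4, a complement regulator (at least 2.22-fold). RAB15 and HPGD each exceeded the negative-control range on only 1 inhibitor array, and HPGD on 0 arrays of EGF alone. Epithelial ion channels and transporters had 3 of 15 members called lower and 0 higher: SCNN1G, a subunit of the epithelial sodium channel (7.57 and 7.59 in control, 4.92 and 4.48 with the inhibitor), AQP3, a water and glycerol channel (fall of 1.36 ± 0.23 SE), and CLCA4 within the negative-control range. Among 24 junction proteins the desmosomal cadherins DSG3 and DSC3 rose by 1.41 ± 0.18 SE and 1.15 ± 0.21 SE, while the connexins GJB2 and GJB6 and the claudin CLDN7 fell. With control replicate 1 or EGF plus gefitinib replicate 2 left out the keratin list had 0 members called lower, and with control replicate 2 or EGF plus gefitinib replicate 1 left out it had 1, and with either array of EGF alone left out it had 2.

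Genes of G1 and S phase had 7 of 26 members called lower and 0 higher, with a median difference of -0.58, and genes of G2 and M phase had 4 of 22 called higher and 0 lower, with a median of 0.30; the difference between the lists was not tested. Of 39 replication dependent histones, which are expressed in S phase and many of which are near-identical copies, 2 were called higher and 0 lower, with a median of 0.03. All probe sets had 2.19% called higher and 1.7% lower, so the histone count says little about that list. RRM2, a ribonucleotide reductase subunit, was at 12.23 and 12.45 in control, 12.61 and 12.64 with EGF alone and 10.73 and 10.91 with EGF plus gefitinib (fall of 1.52 ± 0.18 SE, 2.87-fold, adjusted p 0.0141). GINS1, a part of the replicative helicase, was at 11.60 and 11.56, 11.52 and 11.64, and 10.04 and 10.10 in the same order, and fell 2.85-fold. In both genes the inhibitor arrays lay below all 4 others. MCM6 of the same helicase fell 3.17-fold, CLSPN, a replication checkpoint adaptor, at least 1.84-fold, UNG 2.02-fold, TYMS 1.93-fold and E2F1 at least 1.12-fold. MCM6 exceeded the negative-control range on only 1 inhibitor array. CENPF and CENPE, kinetochore proteins, rose by 1.29 ± 0.21 SE and 1.27 ± 0.20 SE, and TOP2A, a topoisomerase, and TTK, a spindle checkpoint kinase, by 1.01 ± 0.20 SE and 1.0 ± 0.17 SE. The inhibitors of cyclin-dependent kinases CDKN1A and CDKN1B rose by 1.49 ± 0.27 SE and 1.29 ± 0.20 SE, the 2 of 16 members called in their list with the D cyclins, where 4 others were lower at an unadjusted p under 0.05. This list had 0 calls in each of the 6 fits with an array left out. CDKN1A was at 10.00 and 9.24 in control, 11.82 and 11.81 with EGF alone and 11.26 and 10.97 with the inhibitor. CCND1, cyclin D1, had a difference of 0.10 (adjusted p 0.797). Without control replicate 1, control replicate 2, EGF plus gefitinib replicate 1 or EGF plus gefitinib replicate 2 both phase lists had 0 calls, and without either array of EGF alone they had 3 and 0. Over these fits 10 to 16 of the G1 and S phase genes were lower and 5 to 7 of the G2 and M phase genes higher at an unadjusted p under 0.05.

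**Figure D4:**
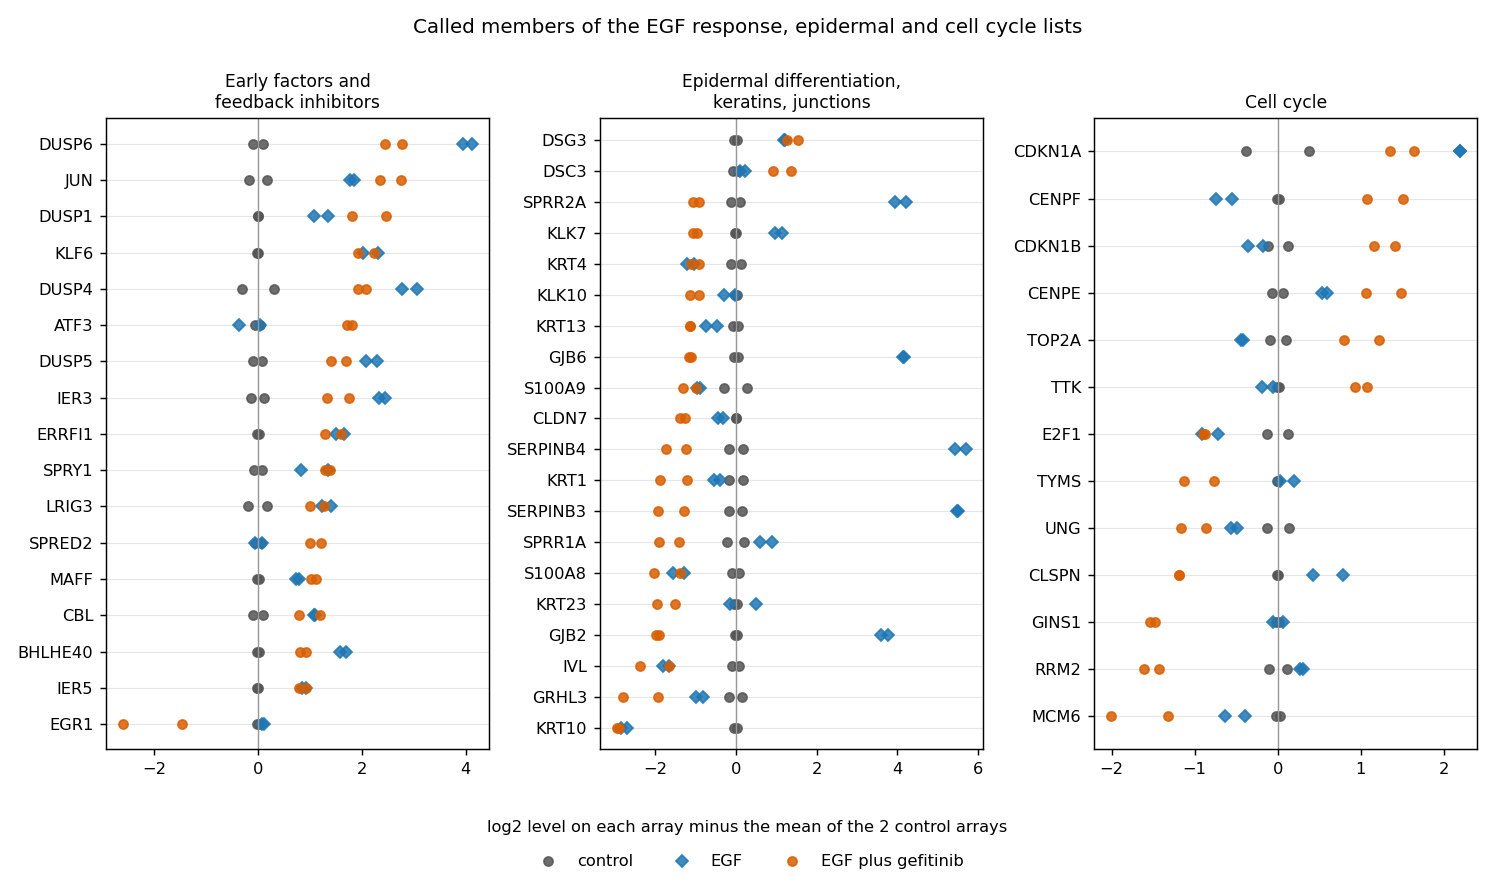
Level on each array minus the mean of both control arrays (horizontal axis, log2) for the called members of the EGF response, epidermal and cell cycle lists, control in grey, EGF alone in blue and EGF plus gefitinib in orange. DUSP6 and KLF6 have both treated groups right of control, KRT10 has both left of it, and GJB2 has EGF alone on the right and EGF plus gefitinib on the left.

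Of 17 measured members of a list of ribosome biogenesis genes and MYC targets, 2 fell and 0 rose with EGF plus gefitinib, where 10 rose and 0 fell with EGF alone. SRM, spermidine synthase, was at 12.51 and 12.21 in control, 13.64 and 13.77 with EGF alone and 10.71 and 10.50 with EGF plus gefitinib, a fall of 3.38-fold below control (adjusted p 0.0111). NOP58, a nucleolar protein, fell by 0.92 ± 0.18 SE. CTPS1, which makes CTP and stood outside the lists, was at 10.21 and 10.36, 12.51 and 12.47, and 8.41 and 8.62 in the same order; it was named after its values were seen. Of 7 cytosolic ribosomal proteins limma called 0 in either direction, and 1 had an unadjusted p under 0.05. In cholesterol and fatty acid synthesis 1 of 20 fell, the fatty acid elongase ELOVL6 (3.18-fold). Of 26 glycolysis and hypoxia genes VEGFA and ADM rose and PDK1, which inhibits pyruvate dehydrogenase, fell 2.93-fold, with 1 inhibitor array within the negative-control range. All probe sets had 2.19% called higher and 1.7% lower, so 1 or 2 calls say little about lists of this size. Heat shock proteins and chaperones had HSPB8 higher and DNAJA1 lower of 15, where EGF alone had 7 higher and 0 lower. Without control replicate 1 or EGF plus gefitinib replicate 2 none of these lists had a member called by limma, as no probe set was.

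**Figure D5:**
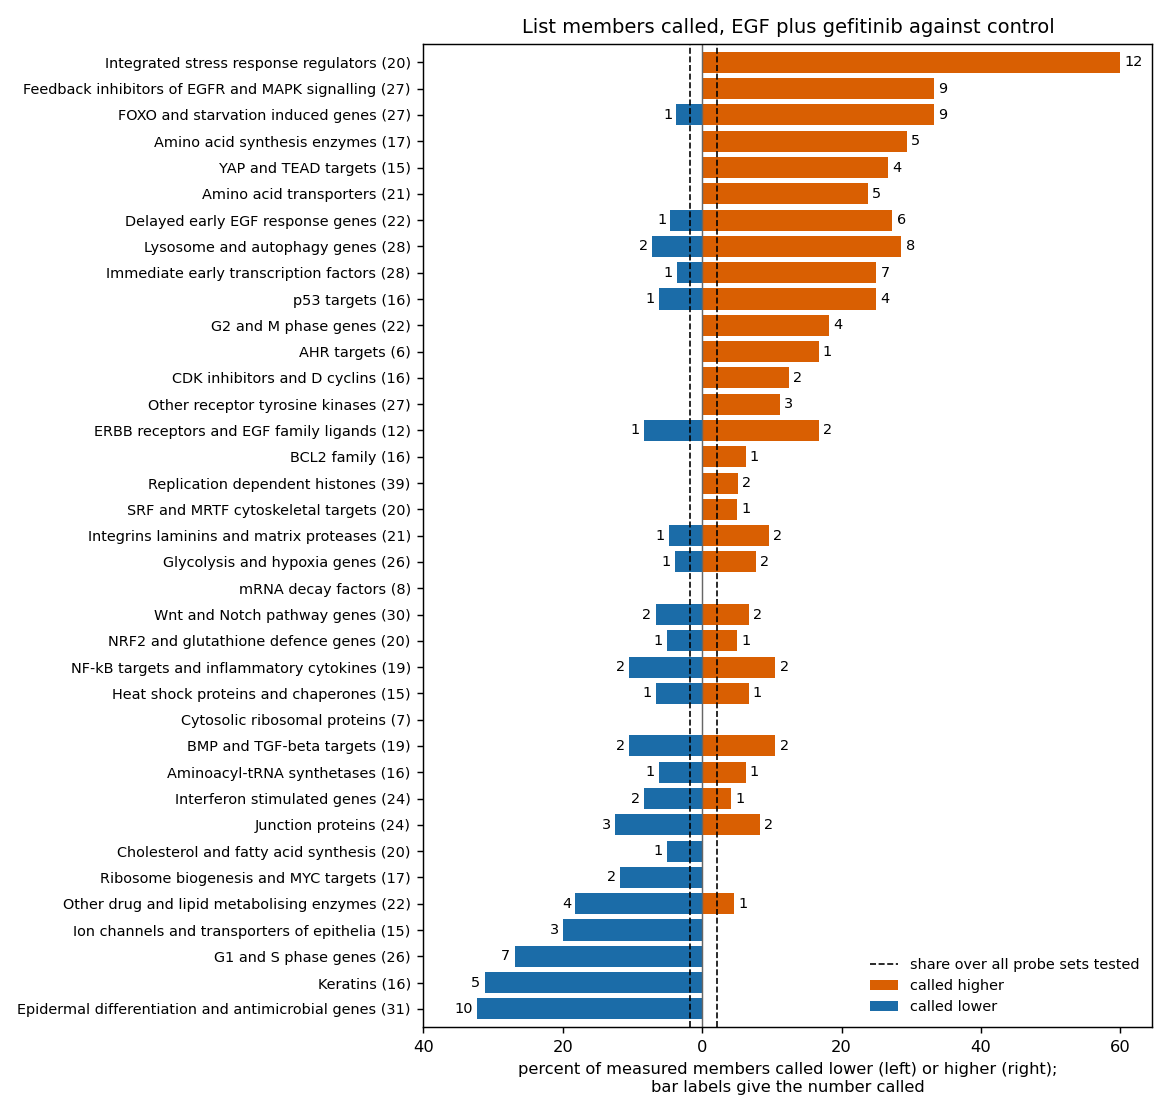
Percent of the measured members of each function list called higher (right, orange) or lower (left, blue) with EGF plus gefitinib against control, with the number called at each bar and the number measured in parentheses. Dashed lines mark the shares over all probe sets tested, 2.19% higher and 1.7% lower; the integrated stress response list reaches farthest right and the epidermal differentiation list farthest left.

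The genes with the largest differences between EGF alone and control, 6 in each direction, were looked up under the inhibitor; this rule was added after the data were seen, and the comparison shares the control arrays. IL1RL1, the receptor of interleukin 33, SOCS2, a cytokine signalling inhibitor, CXCL10, a chemokine, and HAS2, a hyaluronan synthase, lay within the negative-control range in control and above it with EGF alone. With EGF plus gefitinib they lay within it again, and the 95% intervals of their differences from control were -1.46 to 0.47, -0.32 to 0.74, -0.76 to 0.84 and -0.72 to 0.13. SERPINB3 and SERPINB4, also among the 6, were called lower than control, but signals this dim in both groups left no fold to give. On the other side CYP1B1, a cytochrome of the AHR target list, was at 11.63 and 11.54 in control, 5.39 and 5.64 with EGF alone and 11.73 and 12 with the inhibitor, with an interval of -0.17 to 0.74 for the last against the first. BCL6, a transcriptional repressor, had an interval of -0.49 to 0.73. MPPED2 and BCAS1 were called lower than control with the inhibitor as well, by 1.10 and 1.35 on the log2 scale, and PSCA, a surface antigen, had a difference of -1.60 (adjusted p 0.0834). TXNIP alone of the 12 was called higher than control.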

How the data were processed

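RNA of 6 A431 samples was measured on 1 Affymetrix array each. The authors deposited log2 values. The submitters' processing notes name Transcriptome Analysis Console, and the sources used here give neither its version nor the background correction or normalization. The values were used as deposited. The table held 24351 probe sets, of which 2903 were controls and 21448 transcript probe sets, and all of the latter were tested. The platform annotation gave 1 symbol for 17709 (17705 with TC identifiers), several for 0 and none for 3739, and 0 symbols changed in the gene table. For 20 genes with more than 1 probe set, that with the highest mean stood for the gene (17687 genes).

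All 6 arrays entered 1 fit with limma 3.58.1 (lmFit, eBayes) in R 4.3.3 with jsonlite 2.0.0, with 3 residual degrees of freedom and 4.22 from the prior. P-values are two-sided, with Benjamini-Hochberg adjustment over 21448 probe sets, and the threshold was an adjusted p of 0.05. A probe set at or below the 95th percentile of the 612 negative controls on both arrays of the dimmer group has only a bound there, taken from those limits. Its fold is given as at least that value, and its fitted log2 difference is no bound. No fold is given where both groups are within the limits or the bound is under 1. The number of arrays limits the precision.

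The largest differences were taken among called genes above the negative-control limit on both arrays of the brighter group, 343 higher and 277 lower. Named from these in each direction were the 12 largest, 8 also called against EGF alone and 8 also called for EGF alone against control. Without this filter, up to 4 genes per list were named, and EGFR, FOS, EGR1 and DUSP6. Further called list members, SESN2, SPRY4, FOSL1, MYC, EREG, CCND1 and CTPS1 were named after their values were seen. The comparison, the rules and 42 gene lists (37 of function, 5 of markers; 804 of 912 entries with a probe set) were chosen with earlier results of these data known, so list counts are descriptions set beside the share over all probe sets. The procedure was tested on simulated data. Alternatives were only 4 arrays, a replicate block, a filter on dim probe sets, median centring, quantile normalization, an intensity trend, a robust prior, a minimum fold and single arrays left out. No genome build is given for the array files, so no gene coordinates are printed; promoter coordinates are those of RefSeq. Protein sequences were not used here.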

Additional observations from a re-analysis of the deposited data

How the results depend on the processing

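The number of probe sets called, 834 (470 higher, 364 lower), became 247 (145, 102) with only the 4 arrays of both groups, 333 (192, 141) with the replicate number as a block, 2641 (1272, 1369) of 8691 probe sets above the negative-control limit, 2770 (1372, 1398) with an intensity trend of the prior variance, and 41 (26, 15) with a minimum of 1.5-fold. Over the fits without 1 array it ranged from 0 to 247 (0 to 145 higher, 0 to 102 lower). Median centring, quantile normalization and the robust prior gave 844, 875 and 751. The share of calls that were higher was 56.4% as reported and 48.2% in the filtered fit. None of the 125 named called genes changed sign in any of these fits. With no overlap between the arrays of both groups for any called gene, this was fixed in advance wherever the deposited values were fitted unchanged. All 125 passed the threshold with quantile normalization and with the trend, and 117 of 117 in the filtered fit. With the block 93 passed, with 4 arrays 81 and with the minimum fold 30. The fits without 1 array of EGF alone are the same as that with 4 arrays. Deviations of arrays with the same replicate number correlated at -0.041, 0.021 and -0.004. These values show no common deviation by replicate number, but cannot tell whether samples were handled together, which the labels do not state. With the 99th percentile of the negative controls as the limit (9.21 to 10.3), 29 of 117 folds could not be given and 28 moved. The precision is limited by 2 arrays a group and by the 38.4% to 42.1% of probe sets above the limit on an array. The cause of these differences was not tested, beyond the smaller number of arrays or probe sets in the fits named so.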

Other observations

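Lists with other roles were also compared between EGF plus gefitinib and control, where 2.19% of all probe sets were called higher and 1.7% lower. None of their members was called without control replicate 1 or EGF plus gefitinib replicate 2, where 3280 and 3810 of all probe sets had an unadjusted p under 0.05 (limma). Of 19 BMP and TGF-beta targets, TGIF1 and SKIL, repressors of SMAD signalling, rose by 1.63 ± 0.19 SE and 1.19 ± 0.17 SE, and ID4 and ID3, inhibitors of basic helix-loop-helix factors, fell. ID3 fell by 1.29 ± 0.21 SE with the inhibitor and by 3.06 ± 0.21 SE with EGF alone. Of 30 Wnt and Notch pathway genes, the Wnt antagonist DKK1 and the receptor NOTCH2 rose by 1.55 ± 0.19 SE and 1.09 ± 0.21 SE, and the ligands WNT4 and WNT10A fell. YAP and TEAD targets had 4 of 15 members called higher and 0 lower (26.7% higher), among them CCN1, a matrix protein (1.91 ± 0.19 SE), and NT5E, an ectonucleotidase (1.22 ± 0.22 SE). CCN1 was also the 1 of 20 SRF and MRTF targets that was called.

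Of 24 interferon stimulated genes IFIT2 rose by 1.35 ± 0.20 SE, and MX2 and XAF1 fell, where EGF alone had 14 called higher and 1 lower. Among 19 NF-kB targets and cytokines TNFAIP3 and, within the negative-control range on all 6 arrays, IL6 were called higher and IL1B and TNFAIP2 lower. IL1B, the inflammatory cytokine, was at 10.58 and 10.60 in control, 13.05 and 12.91 with EGF alone and 9.63 and 8.76 with EGF plus gefitinib (fall of 2.62-fold, adjusted p 0.0465). Of 16 p53 targets 4 were called higher (25%), among them RRM2B, a ribonucleotide reductase subunit (2.67-fold), and 1 lower. The p53 list had 0 calls without control replicate 2 or EGF plus gefitinib replicate 1 and 2 without either array of EGF alone, and the YAP and TEAD list had 0 without control replicate 2 and 1 without either array of EGF alone or EGF plus gefitinib replicate 1. Of 16 BCL2 family members PMAIP1, a trigger of apoptosis, rose by 1.58 ± 0.19 SE. Other drug and lipid metabolising enzymes had 1 of 22 called higher and 4 lower (18.2%), with 0 lower without control replicate 2, 1 without either array of EGF alone and 2 without EGF plus gefitinib replicate 1. The NRF2 list had 1 called in each direction of 20 and integrins, laminins and matrix proteases 2 higher and 1 lower of 21. Of 8 mRNA decay factors limma called 0, with 3 higher and 2 lower at an unadjusted p under 0.05.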
